A study of Mus musculus with 11 samples.

Results

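C/EBP alpha, beta, delta and epsilon, PU.1 and Gfi1 are transcription factors that direct the formation of granulocytes and monocytes, and their transcripts were followed through 11 libraries of mouse acute myeloid leukaemia (AML). The 6 genes Cebpa, Cebpb, Cebpd, Cebpe, Spi1 (which encodes PU.1) and Gfi1 were found by matching the Ensembl identifiers of the count table to gene symbols. All 6 were present among its 55487 genes. All the leukaemias had Flt3-ITD (a tandem duplication that leaves the Flt3 cytokine receptor active) combined with the NUP98-HOXD13 fusion NHD13. In 6 libraries the mice were Ifnar1 +/-, with 1 functional copy of a gene for a subunit of the type I interferon receptor, and in 5 they were Ifnar1 -/-. These are called heterozygous and knockout libraries. There was no library without Flt3-ITD or NHD13 and none with both copies of Ifnar1, and neither the promoter behind NHD13 nor the age of the mice was stated. The labels do not tell whether each library is a mouse of its own. The p-values therefore measure the spread between libraries, which need not be the spread between mice.

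As background, PU.1 is needed for both the myeloid and the B lineage, and its amount is thought to weigh on that choice. C/EBP alpha acts at the step from multipotent to granulocyte and monocyte progenitors and is a frequent target of mutation in human AML. C/EBP epsilon acts later, in the maturation of neutrophils and eosinophils, where it drives genes of the secondary granules. C/EBP beta serves emergency granulopoiesis and macrophages, C/EBP delta responds to inflammatory signals, and Gfi1 is a zinc finger repressor that favours neutrophils over monocytes and restrains the cycling of stem cells. Forced C/EBP alpha or beta can turn B cells into macrophages, and Ebf1, a B-lineage factor, restrains myeloid genes.

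The 4 C/EBP proteins bind the same DNA element through a basic region next to a leucine zipper at their carboxy end. The stretches of 60 coding bases in which Cebpa, Cebpb and Cebpe resemble each other most lie in the sequence for that basic region, and they are shown because they are where reads of one family member could be taken for another. They are read from GENCODE M21 transcripts on GRCm38, and capitals mark the 48 positions that are identical in these 3 genes.
Cebpa, chr7:35120271-35120330, plus strand: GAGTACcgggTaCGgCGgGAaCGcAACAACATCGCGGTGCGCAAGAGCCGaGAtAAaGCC
Cebpb, chr2:167689691-167689750, plus strand: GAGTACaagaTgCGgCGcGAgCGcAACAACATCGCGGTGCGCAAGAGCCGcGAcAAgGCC
Cebpe, chr14:54710710-54710769, minus strand: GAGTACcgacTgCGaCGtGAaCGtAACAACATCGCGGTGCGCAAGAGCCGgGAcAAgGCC
In these windows each pair shares 51 of 60 bases. Over whole transcripts the longest run of identical bases was 29 between Cebpa and Cebpb, and 26 between Cebpe and either of them. Cebpd shared 27 bases with Cebpb and 14 with Cebpa or Cebpe. The estimated counts of Cebpd were not whole numbers in any library (27.76 in knockout library 2), whereas those of Cebpa, Cebpb and Cebpe were, and the reason was not tested. The length of the reads and the treatment of reads that fit several genes are not stated, so a mix-up within these short runs was not tested.

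In GRCm38, Cebpa (ENSMUSG00000034957) lies on chromosome 7 from 35119293 to 35121928, Cebpb (ENSMUSG00000056501) on chromosome 2 from 167688915 to 167690418 and Cebpd (ENSMUSG00000071637) on chromosome 16 from 15887286 to 15891031, each as a single exon on the plus strand. Cebpe (ENSMUSG00000052435) has 2 exons on the minus strand of chromosome 14, from 54710360 to 54712174. Spi1 (ENSMUSG00000002111) is a plus-strand gene on chromosome 2 (91082390 to 91115756), and Gfi1 (ENSMUSG00000029275) a minus-strand gene on chromosome 5 (107716657 to 107726036). Genes on the opposite strand share exonic bases with 4 members. The overlap is 562 bases of Spidr with Cebpd, 312 of Tmem189 with Cebpb, 101 of A430072P03Rik with Gfi1 and 51 of Gm45091 with Cebpa. Whether reads were counted by strand is not given in the sources used here, so reads in these overlaps cannot be assigned with certainty.

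Library totals ran from 25583642 to 38728143 estimated counts, with 10 counts or more for 13265 to 14730 genes per library. Levels are given as CPM (library-size scaled counts), with TMM factors that correct for differences in RNA composition. Transcripts of the blast and progenitor list (Kit, Flt3, Cd34, Myb, Hoxa9 and Meis1) were counted in all libraries, with a summed level of 258 to 1306 CPM. Ifnar1 had 36.3 to 133 CPM in knockout and 39.3 to 84.5 CPM in heterozygous libraries. Since a deletion of part of a gene can leave such counts in place, these values do not check the labels. Knockout library 2 stood apart from the others. It held 30363 CPM of the 8 neutrophil markers and 68192 CPM of the 8 eosinophil markers, against at most 5774 and 2000 CPM elsewhere, its TMM factor was the lowest (0.6819), and it was the only library with few Xist counts (3, against 1157 to 2399). The Y-linked gene Ddx3y had 817 counts there and at most 22 in any other library. Knockout library 2 thus also differed from the others in transcripts that mark sex, whose part in its levels was not tested. Of the genes tested, 21.0% had their highest level there. Without TMM factors its levels of Cebpe, Spi1 and Cebpb were 444, 345 and 16.1 CPM, in place of the 653, 508 and 23.7 CPM.

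Spi1 was the most abundant of the 6 in most libraries and was counted in all 11. Per kilobase of exon, as TPM, its level was 24.6 to 256 with a median of 40.0, and it ranked first of the 6 in 10 libraries and behind Cebpe in knockout library 2. Cebpe followed with a median of 8.92 TPM and the widest range, from 0 to 716. Gfi1 had a median of 1.44 TPM, Cebpb 0.784, Cebpd 0.21 and Cebpa 0.139. The ranges of neighbours in this order overlap in each case, and that of Gfi1 (0.333 to 2.65) lies inside that of Cebpb (0.119 to 21.5).

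Cebpa was close to absent at this depth. Its estimated counts were 9, 12, 0, 5, 6 and 21 in heterozygous libraries 1 to 6 and 4, 2, 8, 0 and 1 in knockout libraries 1 to 5. In CPM the highest level was 0.682, in heterozygous library 6. In the shallowest library 3 counts, the limit that a count of 0 allows, stand for 0.117 CPM, a bound that covers counting error only. Cebpa was at 0 in 2 libraries and near that limit in others. Cebpd was almost as low, with 0.443, 0.401, 0.036, 0.0727, 0.266 and 0.617 CPM in heterozygous libraries 1 to 6 and 0.309, 1.44, 0.322, 0.0737 and 0.096 CPM in knockout libraries 1 to 5. The highest value came from knockout library 2, and the genotypes overlapped.

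Cebpb was low outside 1 library. It had 1.69, 2.17, 0.072, 0.255, 0.29 and 1.95 CPM in heterozygous libraries 1 to 6. In knockout libraries 1 to 5 it had 0.587, 23.7, 0.501, 0.369 and 0.288 CPM. The value of knockout library 2 was far above all others, and next came heterozygous libraries 2, 6 and 1.

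GC content and exon number are given beside these low levels. The longest coding transcript of Cebpb was 67.2% GC and that of Cebpa 62.6%, higher than 99.7% and 98.4% of 21847 coding genes. Of the 103 coding genes with a single exon block and at least the GC content of Cebpa, 81.6% had a mean under 1 CPM, against 46.5% of all coding genes. Cebpd had 51.6% GC, a middling value, and of the 594 single-block genes at or above it 71.2% had a mean under 1 CPM. Of the 31 at or above the GC content of Cebpb, 80.6% had a mean under 1 CPM. Among the 49 single-block genes with at least 65% GC, the highest means were 40.6 CPM for Hist2h3b, 20.1 CPM for Znhit2 and 9.43 CPM for Jund, a subunit of the AP-1 factor. The part of GC content or exon structure in the low Cebpa, Cebpb and Cebpd counts was not tested.

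**Figure D1:**
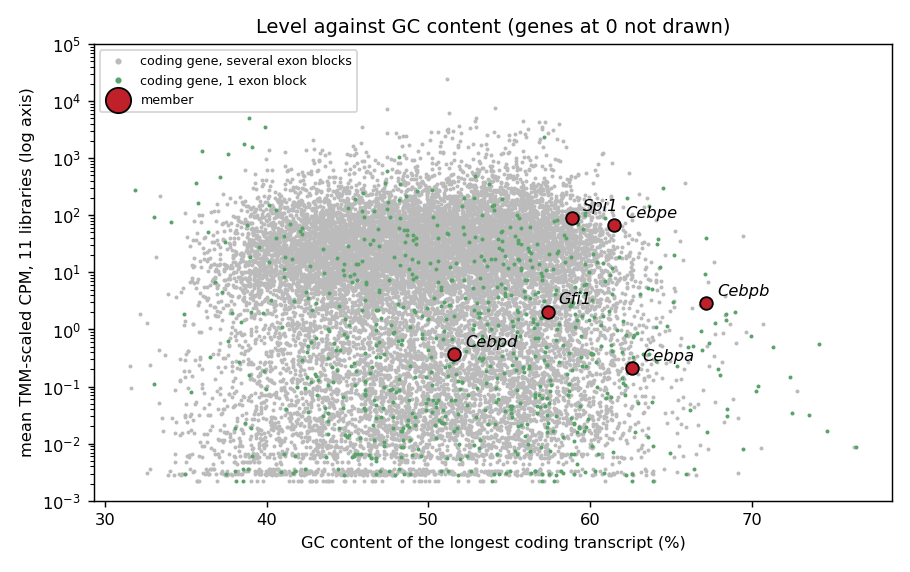
Mean TMM-scaled CPM over 11 libraries (log axis) against the GC content in percent of the longest coding transcript, for coding genes with a single exon block (green), with several (grey) and for the 6 members (red). Cebpa is at 62.6% GC with a mean of 0.211 CPM and Cebpe, with 2 exon blocks, at 61.5% GC with a mean of 66.4 CPM, which holds the 653 CPM of knockout library 2.

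Cebpe had the widest range of the 6. It had 4.11, 36.6, 0.54, 4.44, 9.49 and 3.47 CPM in heterozygous libraries 1 to 6 and 2.56, 653, 11.4, 0 and 5.34 CPM in knockout libraries 1 to 5. Knockout library 2 was highest and heterozygous library 2 second, while knockout library 4 had no count. The same 3 libraries held the extremes of the late neutrophil list of 10 genes, among them the granule genes Ltf, Camp and Ngp. Its summed level was 31778 CPM in knockout library 2, 6205 CPM in heterozygous library 2 and 4.46 CPM in knockout library 4. Heterozygous library 6 broke this order, with 4516 CPM of late neutrophil transcripts at 3.47 CPM of Cebpe. Of the 10 genes, Ltf, Camp and Mmp8 were not highest in knockout library 2. Ltf had 303 CPM there and 647 CPM in heterozygous library 2, Camp 98.0 CPM there and 220 CPM in knockout library 3, and Mmp8 40.3 CPM there and 113 CPM in heterozygous library 2. In bulk RNA, more cells of a type and more RNA per cell cannot be told apart.

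The genes whose levels ran most like Cebpe over the 11 libraries were Hk3, a hexokinase gene (Spearman's rho 0.99), Lipg, which encodes a lipase (0.97), and Cdh23, a cadherin gene (0.97). All 3 were highest in knockout library 2, and Cdh23 was low throughout, at 0 to 3.61 CPM. The rho values share these libraries and are a description only.

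Spi1 had 80.6, 89.5, 26.6, 35.6, 34.0 and 42.4 CPM in heterozygous libraries 1 to 6. In knockout libraries 1 to 5 it had 49.7, 508, 45.8, 53.6 and 28.5 CPM. Apart from 508 CPM in knockout library 2, all values lay between 26.6 and 89.5 CPM. Unlike Cebpe, Spi1 remained at 53.6 CPM in knockout library 4, where the late neutrophil and early myeloid lists summed to 4.46 and 36.7 CPM. Evi2a and Phactr2 were among the genes most like Spi1, each with a rho of 0.97. Phactr2 was low, at 0 to 2.97 CPM, and was highest in heterozygous library 2.

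Gfi1 was low. Its highest level was 9.94 times its lowest, against 19.1 times for Spi1. Outside knockout library 2, however, Spi1 was the more even, at 26.6 to 89.5 CPM. Gfi1 had 3.99, 2.51, 1.84, 2.51, 1.67 and 1.36 CPM in heterozygous libraries 1 to 6 and 0.401, 3.56, 1.18, 2.06 and 1.54 CPM in knockout libraries 1 to 5. The lowest value, in knockout library 1, rested on 13 counts and the highest, in heterozygous library 1, on 99. Gfi1 was not raised in step with Cebpe in knockout library 2, where 3.56 CPM was below the 3.99 CPM of heterozygous library 1. Without TMM factors its level in knockout library 2 was 2.42 CPM, below 3 other libraries. The genes most like it were Tm9sf2 (rho 0.94), the class I antigen-presenting gene H2-D1 (0.92) and Nr2f6, a nuclear receptor gene (0.9). Nr2f6 was low, at 0.0309 to 1.65 CPM. The genes most like Cebpb were Tnfrsf26 (0.98), Grina (0.97) and the Fc receptor gene Fcgr3 (0.96), all highest in knockout library 2. Cebpa and Cebpd had too few counts to be among the genes tested and were not ranked.

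**Figure D2:**
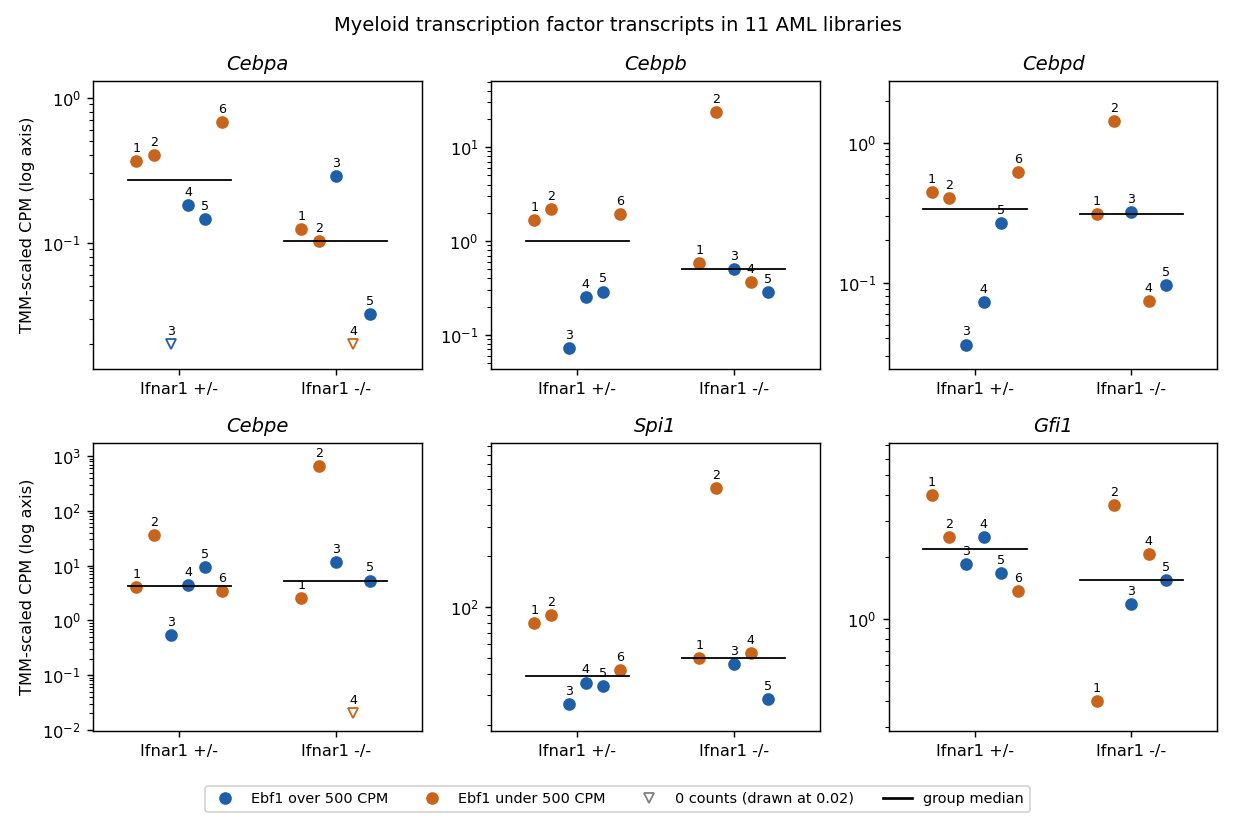
TMM-scaled CPM (log axes) of the 6 genes in each library, by Ifnar1 genotype, with the library number above each point, colour for Ebf1 over or under 500 CPM, open triangles for 0 counts and a line at the group median. Knockout library 2 is the highest point for Cebpb (23.7), Cebpd (1.44), Cebpe (653) and Spi1 (508), but not for Cebpa (0.103) or Gfi1 (3.56).

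The labelled comparison asks whether loss of the interferon receptor subunit changes expression in these leukaemias, and no member passed the test. Genotype was tested with edgeR's quasi-likelihood test across 14521 genes with enough counts, which include Cebpb, Cebpe, Spi1 and Gfi1 but not Cebpa and Cebpd. Of the 4 members tested, 0 had an adjusted p under 0.05, as was the case for 0.0% of all genes tested. At an unadjusted p under 0.05 the test held 0 of the 4 members and 289 genes in all (1.99%), and DESeq2 called 3 genes (0.0213%). Gfi1 was not among them, and DESeq2 gave no p for Cebpb, Cebpe and Spi1. In data simulated for this comparison with the dispersions estimated from these libraries, 0% of genes changed 2-fold were called, 37.3% of those changed 4-fold and 53% of those changed 8-fold. With a dispersion of 0.05 in place of the estimated ones, 94% of genes changed 2-fold were called.

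Cebpe had 9.77 ± 13.4 CPM (SD, n = 6) in heterozygous and 134 ± 290 CPM (SD, n = 5) in knockout leukaemias, a log2 fold change of 3.78 (SE 1.85, edgeR adjusted p = 0.9998). The medians were 4.27 and 5.34 CPM. Without knockout library 2 the log2 fold change was -0.99 (SE 1.34). The positive value thus rested on 1 library.

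Spi1 had 51.4 ± 26.6 CPM (SD, n = 6) in heterozygous and 137 ± 207 CPM (SD, n = 5) in knockout leukaemias, with a log2 fold change of 1.41 (SE 0.76, edgeR adjusted p = 0.9998). Without knockout library 2 it was -0.20 (SE 0.37). Cebpb had 1.07 ± 0.964 and 5.10 ± 10.4 CPM, and its log2 fold change went from 2.24 (SE 1.34, edgeR adjusted p = 0.9998) to -1.28 (SE 0.88) without that library. All 3 genes therefore changed sign with the same library.

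Gfi1 did not depend on that library for its direction. It had 2.31 ± 0.941 CPM (SD, n = 6) in heterozygous and 1.75 ± 1.18 CPM (SD, n = 5) in knockout leukaemias, with a log2 fold change of -0.40 (SE 0.52, edgeR adjusted p = 0.9998). It was -0.81 without knockout library 2, -0.15 without knockout library 1 and -0.18 without heterozygous library 1. The difference was smaller than the spread between libraries.

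**Figure D3:**
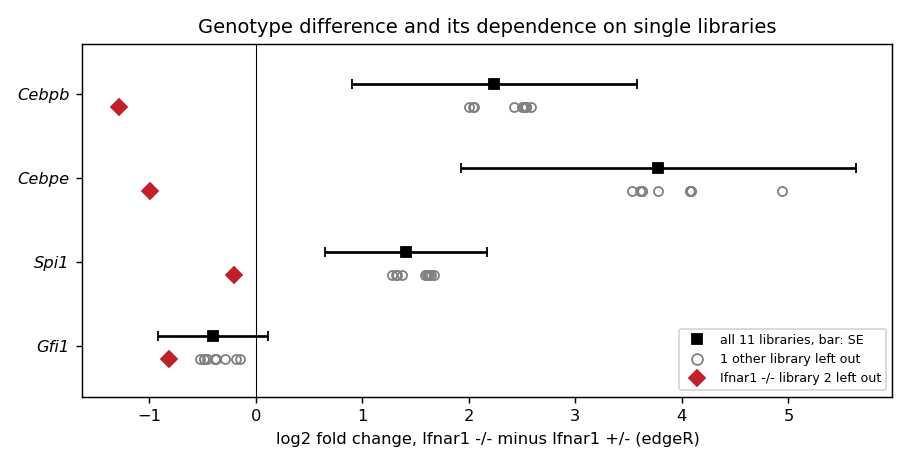
Log2 fold change of Ifnar1 -/- (knockout) minus Ifnar1 +/- (heterozygous) leukaemias in edgeR for the 4 genes tested, with all 11 libraries (squares, bars show the SE), with knockout library 2 left out (red diamonds) and with each other library left out (circles). Only the omission of that library turns the sign of Cebpb (2.24 to -1.28), Cebpe (3.78 to -0.99) and Spi1 (1.41 to -0.20).

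For each member the genotypes were also compared by an exact permutation test, two-sided, on log2(CPM + 1), which has 462 assignments. For a single tail the smallest p is 0.00216, and the p given here is double that of the smaller tail. The exact p was 0.134 for Cebpa, 0.766 for Cebpb, 0.727 for Cebpd, 0.68 for Cebpe, 0.55 for Spi1 and 0.312 for Gfi1. For Cebpa the levels were 0.295 ± 0.24 CPM (SD, n = 6) in heterozygous and 0.109 ± 0.111 CPM (SD, n = 5) in knockout leukaemias. Leaving out heterozygous library 3, which had no count, brought its exact p to 0.0397, and over all alternatives the p ran from that value to 0.248. Groups overlapped for all 6 members, whereas 0.124% of the genes tested had genotypes that did not overlap.

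Levels of Ebf1, which encodes a factor that commits progenitors to the B lineage, fell into separate ranges. Ebf1 had 531 to 745 CPM in heterozygous libraries 3, 4 and 5 and knockout libraries 3 and 5, and at most 8.72 CPM in the other 6. A line at 500 CPM therefore parts 5 libraries from 6, with 3 and 3 heterozygous libraries and 2 and 3 knockout libraries. The line was drawn on measured values, so what follows is a description with no test, and no correlation with Ebf1 over all libraries is given.

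No member kept its values in separate ranges on the 2 sides of the line, which 21.1% of the genes tested did. Spi1 came close. It had 26.6 to 45.8 CPM in the Ebf1-rich libraries and 42.4 to 508 CPM in the others, with medians of 34.0 and 67.1 CPM. In 5 of the 6 libraries with little Ebf1, Spi1 was above all Ebf1-rich libraries, and heterozygous library 6 (42.4 CPM) fell below knockout library 3 (45.8 CPM). Spi1 transcript was thus present on both sides, and the lowest level in any library was 26.6 CPM.

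Cebpb was arranged in a similar way, with 0.072 to 0.501 CPM in the Ebf1-rich libraries and 0.369 to 23.7 CPM in the others. Again 5 of 6 libraries with little Ebf1 were above all the Ebf1-rich ones, the exception being knockout library 4. Cebpd was above them in 4 of 6 libraries (5 without TMM factors) and Cebpa in 3 of 6. The ranges of Cebpa were 0 to 0.286 and 0 to 0.682 CPM, close to the counting limit on both sides.

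Cebpe did not follow Ebf1. Its range of 0.54 to 11.4 CPM in the Ebf1-rich libraries lay inside that of the others, 0 to 653 CPM, and its median was higher in the Ebf1-rich libraries, at 5.34 against 3.79 CPM. Late neutrophil transcripts were also present beside Ebf1, with sums of 240 to 4711 CPM in the 5 Ebf1-rich libraries. Whether the same cells held both cannot be told from bulk RNA. Gfi1 had 1.18 to 2.51 CPM in the Ebf1-rich libraries and 0.401 to 3.99 CPM in the others.

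**Figure D4:**
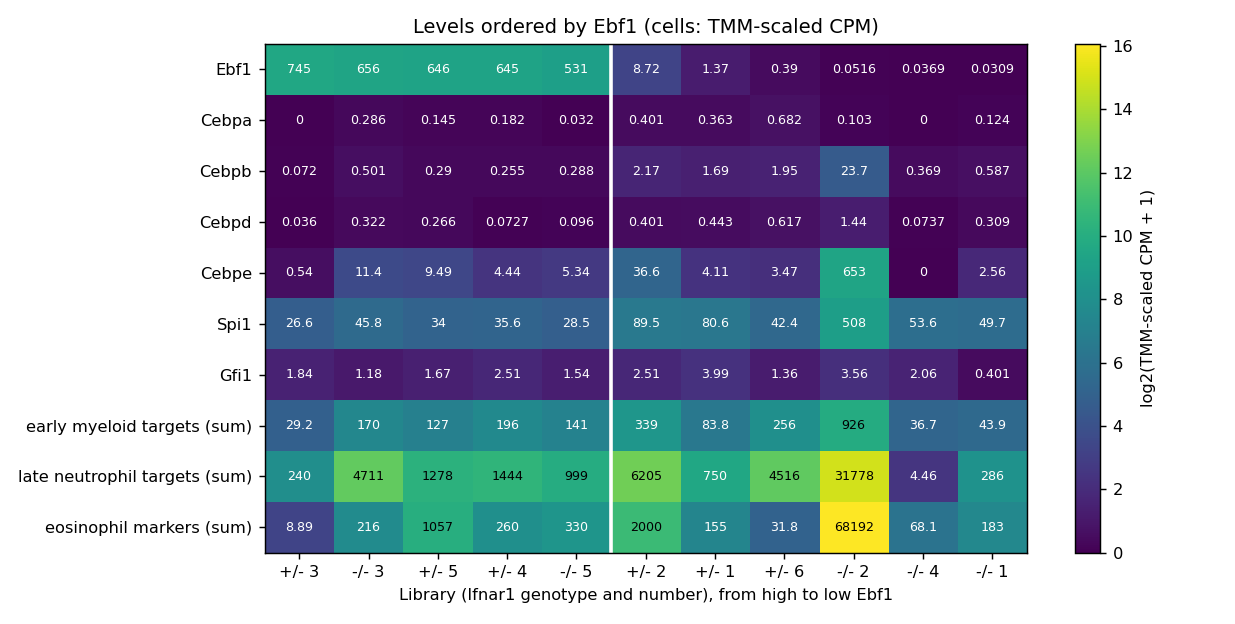
Levels of Ebf1, the 6 members and 3 gene lists (summed) in each library, ordered from high to low Ebf1, with colour for log2(TMM-scaled CPM + 1), the CPM in each cell and a white line between libraries over and under 500 CPM of Ebf1. Spi1 is at 26.6 to 45.8 CPM left of the line and 42.4 to 508 CPM right of it, while Cebpe and the late neutrophil list are spread over both sides.

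Among libraries with little Ebf1, Cebpa had 9, 12 and 21 counts (0.363 to 0.682 CPM) in the 3 heterozygous and 4, 2 and 0 counts (0 to 0.124 CPM) in the 3 knockout libraries, without overlap. Of the genes tested, to which Cebpa does not belong, 7.36% did not overlap in this way, and the numbers are too small for a reading. Among the Ebf1-rich libraries Cebpa had 0 to 0.182 CPM in the 3 heterozygous and 0.032 to 0.286 CPM in the 2 knockout libraries. The other 5 members overlapped between genotypes among libraries with little Ebf1. Spi1 had 42.4 to 89.5 and 49.7 to 508 CPM there, and 26.6 to 35.6 and 28.5 to 45.8 CPM among the Ebf1-rich. Gfi1 did not overlap among the Ebf1-rich libraries, with 1.67 to 2.51 CPM in the 3 heterozygous and 1.18 to 1.54 CPM in the 2 knockout libraries. The share of all genes that did so was not computed, and these libraries are too few for a reading.

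Partners and relatives of the members were described through 8 gene lists, of which 72 different genes could be tested. None of them had an adjusted p under 0.05 between genotypes in edgeR (0 higher and 0 lower), against 0.0% of all genes. The median log2 fold change over all genes tested was -0.01.

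Of the C/EBP family and other bZIP partners, 10 of 11 genes were tested, 0 of which passed, with a median log2 fold change of -0.09. Cebpz, which belongs to the family by name only, had 46.0 to 68.0 CPM and shares 171 exonic bases with Cebpzos on the opposite strand. Cebpg, a partner without an activation domain, had 6.07 to 18.9 CPM. Both were counted in every library, whereas Cebpa was at 0 in 2. Atf4, a factor of the stress response, had 144 ± 53.1 CPM (SD, n = 6) in heterozygous and 102 ± 28.2 CPM (SD, n = 5) in knockout leukaemias and did not pass. Batf had 41.9 ± 16.7 and 27.6 ± 6.35 CPM and did not pass. Ddit3, the C/EBP-related stress gene known as CHOP, had 5.94 to 15.3 CPM in the Ebf1-rich and 26.8 to 146 CPM in the other libraries. In all, 3 of the 10 were higher without overlap in libraries with little Ebf1 (9.0% of all genes tested) and 0 in the Ebf1-rich (12.1%).

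The list of genes that control the turnover of C/EBP alpha held 6 genes, 0 of which passed, with a median log2 fold change of 0.0. Trib1 and Trib2 encode pseudokinases that hand C/EBP alpha to the ubiquitin ligase Cop1. Trib2 had 13.8 to 53.3 CPM in the Ebf1-rich and 0 to 5.34 CPM in the other libraries, without overlap. It was the 1 gene of the 6 that was higher without overlap in the Ebf1-rich, against 12.1% of all genes tested. Trib1 had 8.95 to 42.9 and 17.1 to 102 CPM, with overlap. Trib3 had 37.3 ± 53.7 CPM in heterozygous and 12.3 ± 10.9 CPM in knockout leukaemias, Det1 20.4 ± 7.58 and 22.6 ± 6.20 CPM, and Fbxw7, which encodes a ubiquitin ligase subunit, 23.5 ± 3.73 and 18.4 ± 5.52 CPM (SD, n = 6 and 5).

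Among 14 ETS relatives and partners of PU.1, 0 passed between genotypes (median log2 fold change -0.18). Several were arranged by Ebf1 in the direction opposite to Spi1, and 5 of 14 were higher without overlap in the Ebf1-rich libraries, where 12.1% of all genes were. Spib, the closest ETS relative of Spi1 and active in B cells, had 170 to 333 CPM there and 0 to 3.14 CPM elsewhere. Irf8 and Irf4, which bind DNA together with PU.1, had 155 to 263 and 27.2 to 76.7 CPM there and at most 7.37 and 1.37 CPM elsewhere. Ets1 (303 to 540 against 33.6 to 195 CPM) and Elf1 (201 to 302 against 110 to 178 CPM) completed the 5. Etv6 was the 1 gene of the list that was higher without overlap in libraries with little Ebf1 (9.0% of all genes tested). It had 44.3 to 97.9 CPM there and 18.4 to 33.6 CPM in the Ebf1-rich. Fli1 overlapped, with 80.7 to 126 and 62.9 to 184 CPM.

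Gfi1b, the paralogue of Gfi1 that acts in the erythroid and megakaryocytic lineages, had more counts than Gfi1 in all 11 libraries. It had 3.89 to 46.3 CPM in the Ebf1-rich and 47.1 to 179 CPM in the other libraries, ranges that nearly touch. Of all genes tested, 9.0% were higher without overlap in the latter. Of the 7 genes in the list of this paralogue and of co-repressors 0 passed between genotypes (median 0.10). The deacetylase genes Hdac1 and Hdac2 were the 2 of 7 that were higher without overlap in the Ebf1-rich libraries (12.1% of all genes tested), at 209 to 260 against 122 to 195 CPM and 13.3 to 16.0 against 6.09 to 12.6 CPM. Ehmt2 had 49.1 ± 26.4 and 60.2 ± 19.2 CPM and Rcor1 29.7 ± 5.43 and 31.9 ± 15.2 CPM in heterozygous and knockout leukaemias (SD, n = 6 and 5).

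Of 10 monocyte and dendritic determinants, 9 were tested and 0 passed, with a median log2 fold change of -0.67. Id2, an inhibitor of E proteins, was higher without overlap in libraries with little Ebf1 (9.0% of all genes tested), at 298 to 1653 against 79.2 to 196 CPM. Irf8 was higher without overlap in the Ebf1-rich libraries (12.1% of all genes tested), at 155 to 263 against 0.664 to 7.37 CPM. Each was the 1 gene of the list in its direction. Egr1, a zinc finger factor induced by growth signals and active in monocytes, had 45.1 ± 46.6 CPM in heterozygous and 13.6 ± 8.18 CPM in knockout leukaemias and did not pass (SD, n = 6 and 5). Its highest value, 128 CPM, was in heterozygous library 6. Zeb2 had 30.6 ± 5.92 and 44.1 ± 30.4 CPM.

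Early myeloid targets of these factors were low in most libraries, in summed levels of 29.2 to 926 CPM. Of the 10 genes 0 passed (median log2 fold change -0.27), and the 4 above 0 became 0 without knockout library 2 (median -0.75). In that fit 6836 of all 14948 genes tested were above 0, with a median of -0.03. Mpo, the myeloperoxidase gene, had at most 53.6 CPM, in heterozygous library 4, and 0.0737 CPM in knockout library 4. Lyz2, the lysozyme gene, had 10.1 to 149 CPM. Csf2ra and Csf1r, which encode receptors for GM-CSF and M-CSF, had 410 and 274 CPM in knockout library 2, and elsewhere reached no more than 45.1 and 56.7 CPM. The log2 fold change of Csf2ra between genotypes, 2.25 with an SE of 0.98, did not pass in edgeR (adjusted p = 0.9998).

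Late neutrophil targets had a median log2 fold change of 0.47, with 8 of 10 above 0 and 0 passing. Without knockout library 2, 0 of 10 were above 0 and the median was -0.67. Over all genes tested, 6836 of 14948 were above 0 and the median was -0.03. The genes of a list share the same libraries, so such counts are not separate observations. Ngp had 24050 CPM in knockout library 2 and at most 2149 CPM in the others, S100a9 3536 and at most 788 CPM, and S100a8 1729 and at most 1613 CPM. In the B-lineage list 0 of 7 passed (median -0.24) and 5 were higher without overlap in the Ebf1-rich libraries (12.1% of all genes tested), a list that holds Ebf1 itself. Tcf3 had 68.6 to 170 CPM there and 13.3 to 28.4 CPM elsewhere.

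Marker levels that moved with the members in knockout library 2 were those of eosinophils, neutrophils and monocytes. All 8 eosinophil markers were highest in that library, with Prg2 at 47695 CPM against at most 1166 CPM and Alox15 at 5862 against at most 298 CPM. The summed level of the eosinophil list was 8.89 to 2000 CPM in heterozygous and 68.1 to 68192 CPM in knockout libraries. The monocyte and macrophage markers summed to 2827 CPM in that library and to 15.3 to 635 CPM in the others. Their part in the levels of Cebpb, Cebpe and Spi1 was not tested. The pre-B list summed to 5735 to 9057 CPM in the Ebf1-rich and 11.6 to 121 CPM in the other libraries, and its part in the lower Spi1 and Cebpb levels of the former was not tested.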

How the data were processed

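RNA of 11 AML samples was measured by RNA sequencing. The deposited values are estimated counts per gene, not scaled between samples; per the submitters' processing notes bcl2fastq and DRAGEN were used, in roles not stated. The genome build and annotation behind them are not stated. Of 55774 rows, 287 identical copies were dropped. Symbols matched 55141 identifiers; positions, lengths and sequences are from GENCODE M21 (GRCm38).

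Rounded counts went into edgeR 4.0.16 under R 4.3.3 (filterByExpr by genotype, TMM, glmQLFit with robust=TRUE, glmQLFTest; Benjamini-Hochberg adjustment over 14521 genes, threshold 0.05); SE is the absolute log2 fold change over the square root of F. Permutation tests used scipy 1.17.1 and a pseudocount of 1. TPM used 55141 genes with an exonic length. DESeq2 1.42.0, limma 3.58.1 and other alternatives are named in the closing section. The edgeR step was tested on simulated data with 200 changed genes. All library pairs differed beyond sampling noise (chi-square per degree of freedom at least 59.02).

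The members, lists and the 500 CPM line were chosen with earlier results of these data known. Named genes are the members, Ebf1, Ifnar1, up to 4 genes per pathway list (2 per cell type list) with the highest mean, and the 3 genes most alike by Spearman's rho (predicted genes left out). Cebpg, Trib2, Irf4, Etv6, Hdac2, Tcf3, Camp and Mmp8 were named after their values were seen. Some items chosen by these rules are not reported here.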

Additional observations from a re-analysis of the deposited data

Results flagged for a closer look

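Within a genotype, 5 of 12 groups of values (6 members in 2 genotypes) held a library whose gap to its neighbour was above Dixon's 95% critical value for the group. Chance flags about 1 in 20 only where values are normally distributed, which was not checked for these unlogged CPM. The groups also share libraries, so the flags are not independent and no excess over chance is read from them. In Ifnar1 -/- AML library 2 stood out with 23.7 CPM of Cebpb, 1.44 CPM of Cebpd, 653 CPM of Cebpe and 508 CPM of Spi1. In Ifnar1 +/- AML library 2 stood out with 36.6 CPM of Cebpe. Cebpa and Gfi1 held no such library in either genotype.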

How the results depend on the processing

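Genotype was refitted with DESeq2, with limma voom (quality weights), with other scaling in edgeR (size factors of DESeq2, upper quartile), without the filter or at 5 CPM in 5 libraries, with robust=FALSE, with Ebf1 as a covariate, with the replicate block and without each library. No member with a p passed in these fits; DESeq2 gave none for Cebpb, Cebpe and Spi1, and the 5 CPM filter left out Cebpb and Gfi1. Among the exact permutation tests, only Cebpa without Ifnar1 +/- library 3, which had no count, gave a p under 0.05 (difference -0.28, exact p = 0.0397). That p was not adjusted for the number of members or settings. Leaving out single libraries, the log2 fold change ran from -1.28 to 2.58 for Cebpb, -0.99 to 4.94 for Cebpe, -0.20 to 1.67 for Spi1 and -0.81 to -0.15 for Gfi1. The log2 differences of the permutation tests ran from -0.28 to -0.13 for Cebpa, -0.39 to 0.68 for Cebpb, -0.11 to 0.19 for Cebpd, -0.67 to 1.67 for Cebpe, -0.10 to 0.93 for Spi1 and -0.54 to -0.12 for Gfi1. Each negative end of Cebpb, Cebpd, Cebpe and Spi1 came without Ifnar1 -/- library 2. At a pseudocount of 0.25 the difference was -0.53 for Cebpa (-0.21 at 1) and -0.51 for Gfi1 (-0.33 at 1), on the same side of the threshold. In limma voom the log2 fold changes of Cebpe, Cebpb, Spi1 and Gfi1 were -1.46, 0.61, 0.32 and -0.98, and with Ebf1 as a covariate 2.03, 1.10, 0.73 and -0.52 (the cause was not tested). DESeq2 called 3 genes against 0 in edgeR. No filter gave Cebpa -1.41 (SE 1.06) and Cebpd 0.48 (SE 0.90).

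Nothing in the labels says that the replicate number pairs the libraries. Same-numbered libraries correlated in their deviations from -0.547 to 0.584, and differently numbered ones from -0.648 to 0.725. The correlations were positive only between libraries on the same side of the Ebf1 line. They therefore cannot tell whether equal numbers share an origin. With the replicate block the log2 fold changes were 0.99 for Cebpb, 0.43 for Cebpe, 0.56 for Spi1 and -0.66 for Gfi1, against 2.50, 3.61, 1.37 and -0.52 for the same 10 libraries without it, a fit added after seeing the data, as were the list values without Ifnar1 -/- library 2. No call changed. Counts of 21 or fewer limit what can be said of Cebpa.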
